A study of Mus musculus with 15 samples.

Results

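The 9 genes described here encode cell surface receptors of macrophages for extracellular nucleotides, adenosine, fatty acids and oxysterols. They are the adenosine receptors Adora2a, Adora2b and Adora3, the ATP-gated channels P2rx4 and P2rx7, the nucleotide receptors P2ry2 and P2ry6, the fatty acid receptor Gpr84 and the oxysterol receptor Gpr183. The genes were chosen by name with earlier results of these data known, so their shares beside those of all genes are a description. Each was found on the array through the RefSeq accession of its probes. They make up 9 of 20145 named genes and 12 of 55681 probes, and all 9 were among the 14198 genes that passed the filter on dim probes. RNA came from macrophages grown from mouse bone marrow with macrophage colony-stimulating factor (M-CSF), on a C57BL/6 background. Knockout (KO) cells had the genotype Junb-fl/fl Lyz2-Cre+/+, in which Cre recombinase is driven by the myeloid lysozyme gene and deletes Junb, which encodes a subunit of the transcription factor AP-1. Wild type (WT) cells had the genotype C57BL/6. Cells received lipopolysaccharide (LPS), the bacterial endotoxin sensed by TLR4, for 4 h at 100 ng/ml or were left untreated. There were 3 arrays of KO cells with LPS, 4 of untreated KO cells, 4 of WT cells with LPS and 4 of untreated WT cells. The comparisons ask how LPS changed these receptor genes in each genotype, and whether cells without Junb differed from WT cells at rest, with LPS, or in the LPS response. Replicates are separate wells, so p-values measure the spread between wells, which may be technical, and not the spread between mice.

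Cells release ATP and UTP when they are activated or injured. ATP opens P2X channels and, with other nucleotides, activates P2Y receptors, which signal through G proteins. Enzymes on the cell surface then strip the phosphates, and the adenosine that results acts on its own G protein-coupled receptors, of which the Adora2a and Adora2b products raise cyclic AMP and restrain inflammatory macrophages. P2rx7 is best known in macrophages for the potassium loss that activates the NLRP3 inflammasome and releases interleukin-1β. Gpr84 responds to medium-chain fatty acids, and Gpr183 guides immune cells along gradients of oxysterols that start with the enzyme encoded by Ch25h.

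Levels are given as log2 of the probe signal over the 75th percentile of its array, a relative scale on which no gene can be set against another, since probes differ in brightness. The 75th percentile ranged from 476 to 1480 signal units and the share of probes well above background from 51.0% to 63.2%. Junb was well above background on 0 of 7 KO arrays, with signals of 0.645 to 3.71 with LPS and -0.395 to 4.15 untreated, against 4320 to 9570 in WT cells with LPS and 1290 to 2070 in untreated WT cells. Lyz2, where Cre was inserted, gave signals of 869 to 3790 on KO arrays and of 346000 to 448000 on WT arrays. Of the macrophage markers, 8 of 8 on the array were well above background on all arrays. Xist was well above background on all WT arrays and on 0 of 7 KO arrays, and Ddx3y and Eif2s3y on all KO arrays and on 0 of 8 WT arrays, while the Y-linked gene Kdm5d was above background on all KO arrays, on 1 of 4 WT arrays with LPS and on 4 of 4 untreated WT arrays, with signals of 44.8 to 1180 on those. The first 3 of these genes separate the genotypes as a difference in sex would, and Kdm5d does not. All KO arrays lay on slide 1 and all WT arrays on slide 2, and within a slide the untreated arrays lay in row 1 and the LPS arrays in row 2. Junb loss, Lyz2 loss, Cre, sex and slide therefore cannot be told apart in any comparison of KO with WT cells, and LPS and row cannot be told apart in the LPS responses. On untreated KO replicate 3, 174 genes lay more than 4 log2 units from the median of their group's other arrays, against 0 to 54 genes on each of the other 14 arrays. That array, untreated WT replicate 1 and LPS-treated WT replicate 4 deviated most from their group means (SD over genes 0.64, 0.54 and 0.526). Some results, but not all, are also given without them.

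LPS moved most of the receptors, several by large factors and in both directions. In KO cells 4 of the 9 genes rose and 3 fell, where 59.0% of all genes tested were called (31.1% higher and 28.0% lower). In WT cells 6 rose and 2 fell, where 60.0% of all genes were called. The median log2 change of the 9 genes was 1.89 in KO cells and 1.06 in WT cells, beside medians over all genes of 0.16 and 0.14. The KO median is the value of P2rx4, which rests on untreated KO replicate 3 and was -0.23 without it. It is therefore not read as a shift of the 9 genes. Adora2b, Adora2a, P2ry2 and Gpr84 rose in both genotypes, and Gpr183 and P2rx7 fell in both. Calls are at an adjusted p under 0.05 in limma, a linear model fitted over all genes, with Benjamini-Hochberg adjustment over all genes. In these bulk samples fewer expressing cells and less RNA per cell cannot be told apart.

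**Figure D1:**
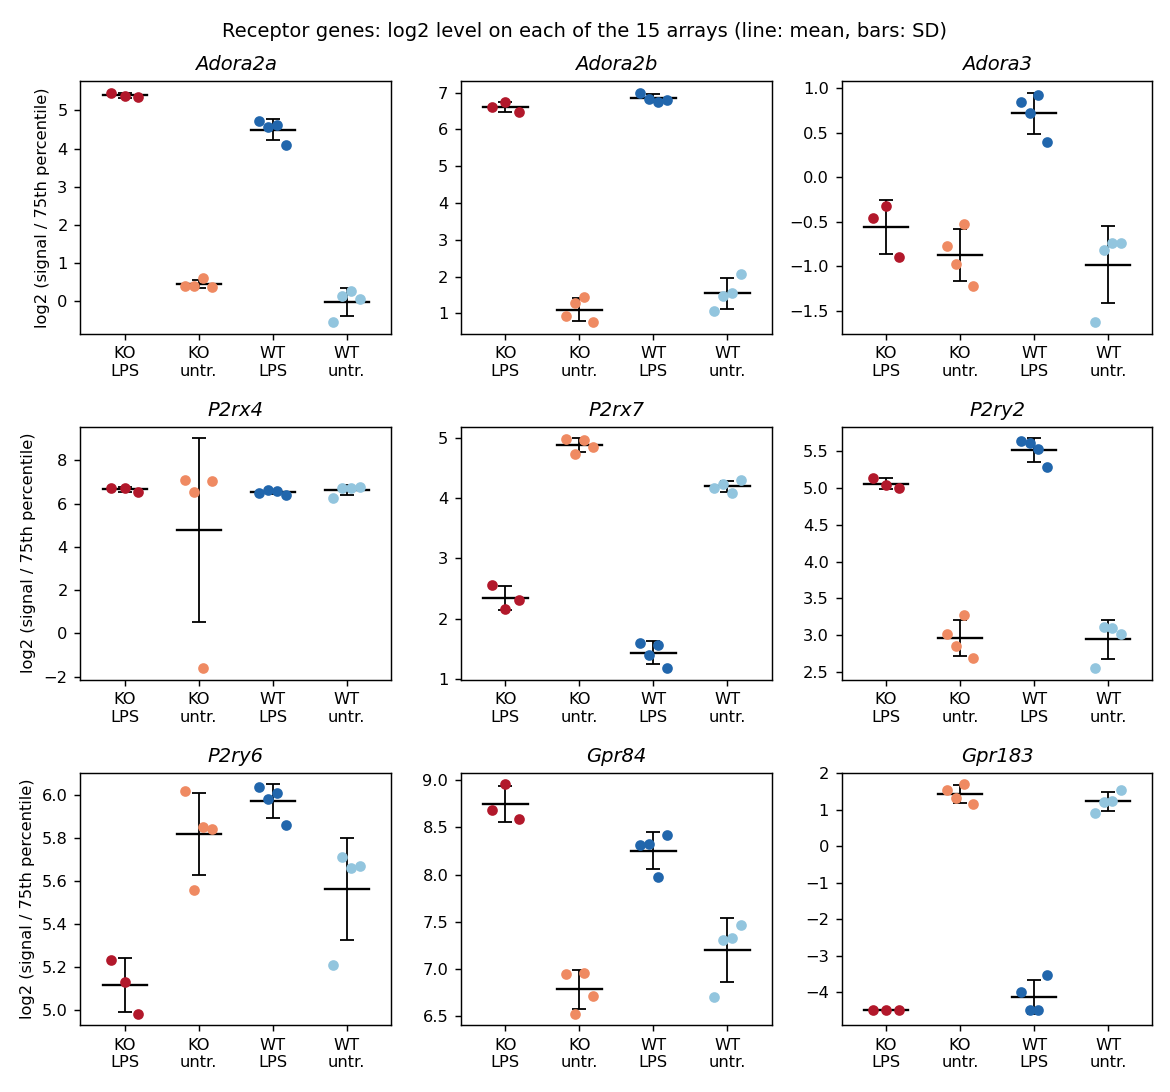
Level of each receptor gene on every array (points; vertical axis: log2 of the signal over the array's 75th percentile, with its own range in each panel), with the group mean (line) and SD (bars), for KO with LPS, KO untreated, WT with LPS and WT untreated. The groups with and without LPS are far apart for Adora2a, Adora2b, P2rx7, P2ry2 and Gpr183, and the P2rx4 panel holds the single low array at -1.60.

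Adora2a encodes an adenosine receptor that couples to the G protein Gs and is known as a brake on macrophage cytokine output. KO cells with LPS stood at 5.47, 5.37 and 5.36, against 0.39, 0.39, 0.59 and 0.37 in untreated KO cells. WT cells with LPS stood at 4.72, 4.57, 4.62 and 4.08, against -0.56, 0.13, 0.25 and 0.06 in untreated WT cells. The 4 groups did not overlap in any pair, and every LPS array was above every untreated array. Adora2a rose by 4.96 ± 0.19 log2 units in KO cells (31.2-fold, SE, adjusted p = 4.43e-11, limma) and by 4.53 ± 0.17 in WT cells (23.1-fold, adjusted p = 3.87e-11). The response in KO minus that in WT cells was 0.43 ± 0.25 (95% interval -0.11 to 0.98, adjusted p = 0.315), and it passed with the percentile taken over probes above background on all arrays (0.57, adjusted p = 0.0413) and without the 3 arrays that deviated most (0.52, adjusted p = 0.0203). With LPS the level was 0.90 ± 0.19 higher in KO than in WT cells (1.87-fold, adjusted p = 0.00264), higher on 3 of 3 KO arrays than on any WT array. At rest the difference was 0.47 ± 0.17 (adjusted p = 0.077), and it passed after quantile normalization (0.49, adjusted p = 0.0373), with the other percentile (0.37, adjusted p = 0.0305) and without LPS-treated WT replicate 4 (0.47, adjusted p = 0.0451).

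Adora2b encodes the low-affinity adenosine receptor, which also raises cyclic AMP. Its level in KO cells was 6.61, 6.74 and 6.47 with LPS, against 0.94, 1.29, 1.44 and 0.76 untreated. In WT cells it was 7.0, 6.83, 6.75 and 6.79 with LPS, against 1.07, 1.48, 1.56 and 2.07 untreated. The rises were the largest of the 9 genes in this setting: 5.50 ± 0.21 in KO cells (45.3-fold, adjusted p = 4.68e-11, limma) and 5.30 ± 0.19 in WT cells (39.4-fold, adjusted p = 2.3e-11). Neither the difference of the responses (0.20 ± 0.28, 95% interval -0.41 to 0.81, adjusted p = 0.69) nor the level with LPS (KO minus WT, -0.23 ± 0.21, adjusted p = 0.432) passed the threshold. A second probe for the same transcript rose by 5.26 in KO and 5.65 in WT cells, and it was lower in KO cells by 1.13 with LPS (adjusted p = 0.00106 over all probes) and by 0.73 untreated (adjusted p = 0.0153). Both probes gave lower means in KO cells in both conditions. The unequal change of the probes between KO and WT cells with LPS was 0.89 (exact permutation p = 0.0286, two-sided, the smallest these group sizes allow, and 0.0654 after adjustment over 16 such comparisons). With the mean over both probes the KO level was lower by 0.68 with LPS (adjusted p = 0.00697) and by 0.58 at rest (adjusted p = 0.0169). The promoter is shown because Adora2b had the largest rise. It is among the GC-rich ones, with 70.0% G or C and 27 CpG pairs in 300 bases, and 90.4% of all promoters in the table have less. The sequence is from RefSeq, mouse build GRCm38.p6, at chr11:62248734-62249033 on the plus strand, from 250 bases before to 50 after the annotated start, and it holds none of the motifs searched, so no letters are in capitals.
Adora2b: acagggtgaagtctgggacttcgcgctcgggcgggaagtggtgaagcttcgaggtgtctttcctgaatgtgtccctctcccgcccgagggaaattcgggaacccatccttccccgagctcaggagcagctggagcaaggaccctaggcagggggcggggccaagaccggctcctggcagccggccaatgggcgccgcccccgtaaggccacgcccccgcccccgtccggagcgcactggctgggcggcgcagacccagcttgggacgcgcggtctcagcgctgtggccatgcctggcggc

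Adora3 encodes the adenosine receptor that couples to Gi and lowers cyclic AMP, known in rodents above all from mast cells. KO cells with LPS stood at -0.46, -0.32 and -0.90, against -0.77, -0.98, -0.53 and -1.22 in untreated KO cells, and the 2 groups overlapped. WT cells with LPS stood at 0.84, 0.72, 0.92 and 0.39, against -1.63, -0.82, -0.74 and -0.74 in untreated WT cells, with no overlap. Adora3 rose by 1.70 ± 0.22 in WT cells (3.25-fold, adjusted p = 1.16e-05, limma), and the value in KO cells was 0.31 ± 0.24 (95% interval -0.20 to 0.82, adjusted p = 0.271). Without the 3 arrays that deviated most, the KO value was 0.43 with an adjusted p of 0.0326. The responses differed by -1.39 ± 0.32 (KO minus WT, adjusted p = 0.0152). With LPS the level was 1.28 ± 0.24 lower in KO than in WT cells (2.42-fold, adjusted p = 0.00131), lower on 3 of 3 KO arrays than on any WT array, and at rest the difference was 0.11 ± 0.22 (adjusted p = 0.785). In order of level, WT with LPS was highest, and the other 3 groups did not differ beyond their spread. The difference of the responses missed the threshold in the deposited value table (-1.35, adjusted p = 0.0758) and with the replicate block (-1.35, adjusted p = 0.0856). Of 7 mast cell and basophil markers, Fcer1a, Mcpt4 and Mcpt8 were above background in none of the 4 groups. Cpa3 was above background only in untreated KO cells and Ms4a2 only in untreated WT cells, neither on all arrays of that group. Tpsb2 was above background on all 15 arrays, with no called change. Gata2 was above background on all LPS arrays of both genotypes and rose by 1.47 ± 0.23 in KO cells (adjusted p = 7.54e-05) and by 1.35 ± 0.21 in WT cells (adjusted p = 7.08e-05). The summed signal of the list was 167 to 315 in KO cells with LPS, 78.5 to 460 in untreated KO cells, 211 to 290 in WT cells with LPS and 107 to 310 in untreated WT cells, and the part of such cells in the result was not tested. The promoter (RefSeq, GRCm38.p6, chr3:105904171-105904470, plus strand) is shown because it holds a match to the AP-1 motif TGANTCA, given in capitals, which begins 98 bases before the annotated start.
Adora3: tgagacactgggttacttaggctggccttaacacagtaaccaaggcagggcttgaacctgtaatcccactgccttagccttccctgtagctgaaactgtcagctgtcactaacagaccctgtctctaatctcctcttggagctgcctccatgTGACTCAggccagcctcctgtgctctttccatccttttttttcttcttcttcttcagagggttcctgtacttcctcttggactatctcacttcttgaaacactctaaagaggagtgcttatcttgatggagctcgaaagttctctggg

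P2rx7 encodes the ATP-gated channel that opens a large pore at high ATP, and it fell with LPS. On the probe of NM_011027, KO cells stood at 2.56, 2.16 and 2.31 with LPS, against 4.97, 4.73, 4.96 and 4.84 untreated. WT cells stood at 1.59, 1.40, 1.57 and 1.18 with LPS, against 4.16, 4.23, 4.09 and 4.30 untreated. No pair of groups overlapped, and the order was KO untreated, WT untreated, KO with LPS and WT with LPS. P2rx7 fell by 2.53 ± 0.13 on the log2 scale in KO cells (5.79-fold, adjusted p = 8.76e-10, limma) and fell by 2.76 ± 0.12 in WT cells (6.78-fold, adjusted p = 1.27e-10), and the responses differed by 0.23 ± 0.17 (adjusted p = 0.456). The level was higher in KO than in WT cells, by 0.68 ± 0.12 untreated (adjusted p = 0.00122) and by 0.91 ± 0.13 with LPS (adjusted p = 0.000151). The other probes for this gene fell with LPS too, and none of their genotype differences passed the threshold. The probe of NM_001038887 changed by -1.37 in KO and -0.98 in WT cells, with KO minus WT values of 0.76 untreated (adjusted p = 0.145) and 0.36 with LPS (adjusted p = 0.495). Its value on untreated KO replicate 3 was 3.24, against 1.96, 1.62 and 1.61 on the group's other arrays, and without that array the KO response was -1.0 ± 0.24 (adjusted p = 0.00347) and the genotype difference at rest 0.38 ± 0.22 (adjusted p = 0.331). The probe of NM_001038845 changed by -1.67 in KO and -1.38 in WT cells, with KO minus WT values of -0.16 untreated (adjusted p = 0.649) and -0.45 with LPS (adjusted p = 0.132). These values have the opposite sign to those of the first probe. The unequal change of the first probe and this one between KO and WT cells was 0.84 untreated and 1.36 with LPS. For each the exact permutation p was 0.0286, and 0.0654 after adjustment over 16 such comparisons. With the mean over the 3 probes neither genotype difference passed (0.43, adjusted p = 0.0507 untreated, and 0.27, adjusted p = 0.193 with LPS). In the deposited value table the genotype difference at rest turned to -1.35 (adjusted p = 0.534) and the LPS response missed the threshold in KO cells (-0.90, adjusted p = 0.616) and in WT cells (-3.06, adjusted p = 0.054). The promoter of the first annotated start (RefSeq, GRCm38.p6, chr5:122643677-122643976, plus strand) is shown because its AP-1 match, in capitals, begins 249 bases before the start.
P2rx7: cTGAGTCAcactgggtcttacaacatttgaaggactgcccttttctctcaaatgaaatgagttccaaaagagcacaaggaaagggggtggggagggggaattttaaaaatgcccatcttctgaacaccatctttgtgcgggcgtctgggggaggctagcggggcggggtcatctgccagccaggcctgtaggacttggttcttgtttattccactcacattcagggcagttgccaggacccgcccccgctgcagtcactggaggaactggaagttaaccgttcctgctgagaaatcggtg

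P2rx4 encodes an ATP-gated calcium channel that is abundant in macrophages, and its gene lies near P2rx7 on chromosome 5, with 2 annotated genes between them. Its level was 6.73, 6.71 and 6.52 in KO cells with LPS, against 7.11, 6.52, -1.60 and 7.02 in untreated KO cells. WT cells stood at 6.49, 6.61, 6.58 and 6.39 with LPS, against 6.27, 6.74, 6.74 and 6.76 untreated. All arrays but untreated KO replicate 3 lay between 6.27 and 7.11, and on that array the signal was 320, against 83946, 136173 and 88856 on the other untreated KO arrays. With it, the LPS response in KO cells was 1.89 ± 1.54 (95% interval -1.42 to 5.20, adjusted p = 0.305). Without it, the responses were -0.23 ± 0.17 in KO cells (adjusted p = 0.266) and -0.11 ± 0.15 in WT cells (adjusted p = 0.557). No comparison of P2rx4 passed the threshold with or without that array.

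P2ry2, the receptor for ATP and UTP that is known to guide phagocytes towards dying cells, rose with LPS. KO cells stood at 5.14, 5.04 and 5.0 with LPS, against 3.02, 2.85, 3.27 and 2.69 untreated. WT cells stood at 5.64, 5.61, 5.54 and 5.29 with LPS, against 2.55, 3.11, 3.1 and 3.02 untreated. The rise was 2.10 ± 0.16 in KO cells (4.29-fold, adjusted p = 6.84e-08, limma) and 2.58 ± 0.15 in WT cells (5.97-fold, adjusted p = 3.09e-09), and the responses differed by -0.48 ± 0.22 (adjusted p = 0.199). At rest the genotypes differed by 0.02 ± 0.15 (adjusted p = 0.976). With LPS the KO level was 0.46 ± 0.16 lower (adjusted p = 0.0468) with no overlap, but this call was lost under 15 of 25 alternatives, among them the replicate block (-0.48, adjusted p = 0.0541), and on its own values the exact permutation p was 0.0571.

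P2ry6, the receptor for UDP, which promotes phagocytosis in microglia, lies next to P2ry2 on chromosome 7 with 0 annotated genes between them, yet it changed differently. KO cells stood at 5.23, 5.13 and 4.98 with LPS, against 6.02, 5.56, 5.85 and 5.84 untreated. WT cells stood at 6.04, 5.98, 6.01 and 5.86 with LPS, against 5.21, 5.71, 5.66 and 5.67 untreated. In KO cells every LPS array was below every untreated array, and in WT cells every LPS array was above every untreated array. P2ry6 fell by 0.71 ± 0.14 in KO cells (1.63-fold, adjusted p = 0.000614, limma), and under 25 alternatives this value lay between -1.32 and -0.64 with an adjusted p of at most 0.0347. The WT value of 0.41 ± 0.13 (adjusted p = 0.0139) flips to -0.29 (adjusted p = 0.0042) after quantile normalization and to -0.02 (adjusted p = 0.856) with the percentile taken over probes above background on all arrays, settings that move the WT median of all genes to -0.10 and -0.24. The responses differed by -1.12 ± 0.19 (KO minus WT, adjusted p = 0.00229), between -1.20 and -0.74 under the alternatives and past the threshold in all but the value table and the replicate block. With LPS the KO level was 0.86 ± 0.14 lower than in WT cells (1.82-fold, adjusted p = 0.000472), lower on 3 of 3 KO arrays than on any WT array. At rest it was 0.25 ± 0.13 above WT (adjusted p = 0.198). P2ry6 is measured by 10 spots per array. Of the 20 nearest tested genes around P2ry2 and P2ry6, 3 differed between KO and WT cells untreated, 7 with LPS and 2 in the LPS response, where 18.4%, 29.8% and 10.4% of all genes did.

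Gpr84, the receptor for medium-chain fatty acids and a known LPS-induced gene of macrophages, rose more in KO cells. KO cells stood at 8.69, 8.96 and 8.59 with LPS, against 6.94, 6.52, 6.95 and 6.71 untreated. WT cells stood at 8.31, 8.32, 7.97 and 8.42 with LPS, against 6.70, 7.30, 7.33 and 7.46 untreated. The rise was 1.97 ± 0.19 in KO cells (3.91-fold, adjusted p = 5.32e-07, limma) and 1.06 ± 0.17 in WT cells (2.08-fold, adjusted p = 9.99e-05), and the WT rise was 0.64 after quantile normalization and 0.62 with the other percentile. The responses differed by 0.91 ± 0.25 (adjusted p = 0.0358), a call lost under 13 of 24 alternatives, among them leaving out any of 9 single arrays (values of 0.80 to 0.94). The level in KO minus that in WT cells was -0.42 ± 0.17 untreated (adjusted p = 0.108), with overlap, and 0.49 ± 0.19 with LPS (adjusted p = 0.0618), without overlap. Leaving out untreated WT replicate 1, which deviated from its group, gave adjusted p = 0.0148 for the comparison at rest (-0.59) and 0.0197 for that with LPS (0.49). In KO cells with LPS the Gpr84 probe ranked 39 to 60 of 55681 by brightness, and its signals differed 1.21-fold between arrays whose 75th percentiles differed 1.47-fold, so the size of the rise is uncertain.

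Gpr183 encodes the oxysterol receptor also named EBI2, and it showed the deepest fall of the 9 genes. In KO cells with LPS the probe was well above background on 0 of 3 arrays, with signals of 28.8, 13.8 and 28.5, against levels of 1.54, 1.33, 1.70 and 1.16 in untreated KO cells (signals of 1767, 3721, 3154 and 1536). In WT cells with LPS it was well above background on 2 of 4 arrays, at -3.99 and -3.54, with the others at the floor of -4.50, against 0.92, 1.22, 1.23 and 1.55 in untreated WT cells. Gpr183 was thus lower with LPS in KO cells (adjusted p = 4.32e-11, limma) and in WT cells (adjusted p = 4.11e-11). The KO change was -5.93 (61.1-fold, 95% interval -6.41 to -5.45), with all 3 LPS arrays set to the floor. The WT change of -5.36 rests on 2 arrays set to the floor, so the size of both changes depends on that floor. With normexp background correction, which adds an offset of 50, the changes were -4.31 in KO and -3.91 in WT cells. At rest the genotypes differed by 0.20 ± 0.21 (95% interval -0.24 to 0.64, adjusted p = 0.54), and with LPS both lie at or near the floor, so no order is given. The promoter (RefSeq, GRCm38.p6, chr14:121965144-121965443, minus strand) is shown because it stands at the other end of base composition from Adora2b, with 35.3% G or C and 4 CpG pairs. Only 3.98% of promoters have less, and it holds none of the motifs searched.
Gpr183: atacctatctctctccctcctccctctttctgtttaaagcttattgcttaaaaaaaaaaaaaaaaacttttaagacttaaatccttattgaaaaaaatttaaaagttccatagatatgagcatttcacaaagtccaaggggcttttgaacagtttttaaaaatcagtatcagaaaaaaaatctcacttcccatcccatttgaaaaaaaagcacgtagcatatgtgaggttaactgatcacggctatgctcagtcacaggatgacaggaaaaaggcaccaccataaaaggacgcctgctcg

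**Figure D2:**
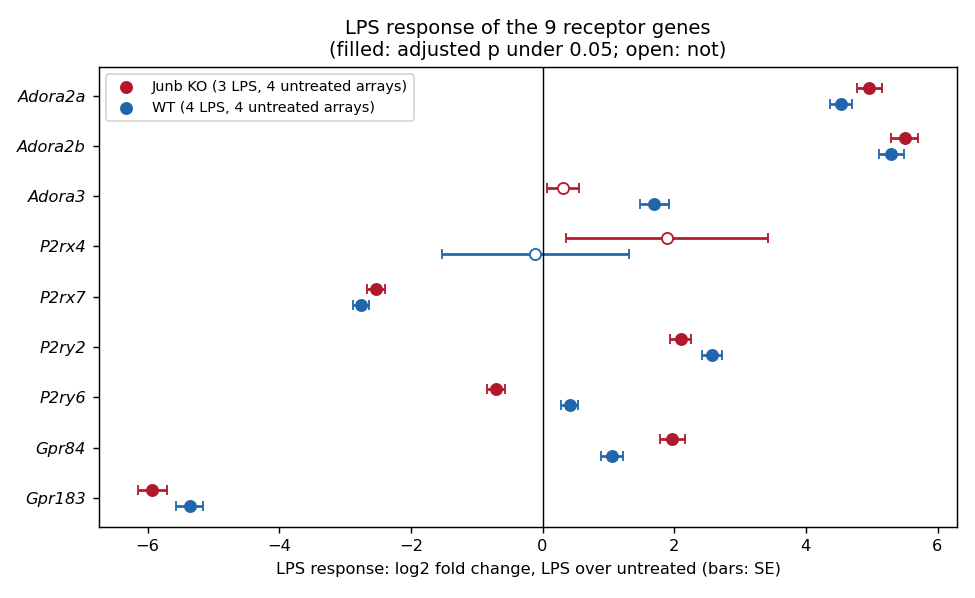
LPS response of the 9 receptor genes (horizontal axis: log2 fold change, LPS over untreated; bars: SE) in KO and WT cells, filled where the adjusted p was under 0.05. The genotypes' values lie furthest apart for P2rx4 (1.89 in KO, -0.11 in WT), with wide bars that come with the array at -1.60, and the differences called are those of Adora3, P2ry6 and Gpr84.

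Set beside each other, the LPS responses of 3 of the 9 genes differed between the genotypes, where 10.4% of all genes did (2.50% higher and 7.87% lower in KO cells). Gpr84 had the larger value in KO cells (0.91), and Adora3 (-1.39) and P2ry6 (-1.12) the smaller. The count of 3 depends on the setting. All of these calls were lost in the value table and with the replicate block, and that of Gpr84 under 13 of 24 alternatives. The median difference over the 9 genes was 0.20, beside -0.10 over all genes. It counts P2rx4 at 2 ± 2.09, which rests on untreated KO replicate 3 and was -0.12 without it. The median thus depends on that array, and no contrast with all genes is drawn. Over all genes, leaving out LPS-treated KO replicate 3 cut the calls for this difference to 909, against 1472 with it.

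Without LPS, 1 of the 9 genes differed between KO and WT cells, P2rx7, where 18.4% of all genes did (13.7% higher and 4.66% lower in KO cells). That count is unstable. It was 3 without untreated WT replicate 1, which adds Adora2b (-0.60) and Gpr84 (-0.59), and 2 without LPS-treated WT replicate 4, which adds Adora2a (0.47). P2rx7 itself was lost with the mean over the probes of a gene (0.43, adjusted p = 0.0507, limma). In that setting Adora2b was called instead (-0.58, adjusted p = 0.0169). In the deposited value table P2rx7 had the other sign (-1.35, adjusted p = 0.534). With LPS 5 of the 9 genes differed, where 29.8% of all genes did: Adora2a (0.90) and P2rx7 (0.91) were higher in KO cells, and Adora3 (-1.28), P2ry6 (-0.86) and P2ry2 (-0.46) were lower. Of these, P2rx7 was lost with the mean over probes (0.27, adjusted p = 0.193) and in the value table (0.81, adjusted p = 0.716). P2ry2 was lost under 15 of 25 alternatives. Adora2b was called with the mean over probes (-0.68, adjusted p = 0.00697). The medians over the 9 genes were 0.11 untreated and -0.23 with LPS, beside 0.10 and 0.03 over all genes. Some neutrophil markers differed as well. The summed signal over 8 markers was 11000 to 15100 in KO cells with LPS and 24200 to 61800 in WT cells with LPS. Untreated, it was 3950 to 10200 in KO cells and 8180 to 10000 in WT cells. With LPS, S100a9 (-4.04), S100a8 (-1.74) and Camp (-0.63) were called lower in KO cells, and so they were untreated (-3.07, -0.47 and -0.92), with S100a9 above background on 0 of 7 KO arrays. Elane was above background on all arrays and did not differ (0 with LPS and 0.01 untreated). Ngp was above background on some arrays of KO cells with LPS and on no array of the other groups. Cxcr2 and Mpo were above background in no group. The part of such cells in these differences was not tested.

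**Figure D3:**
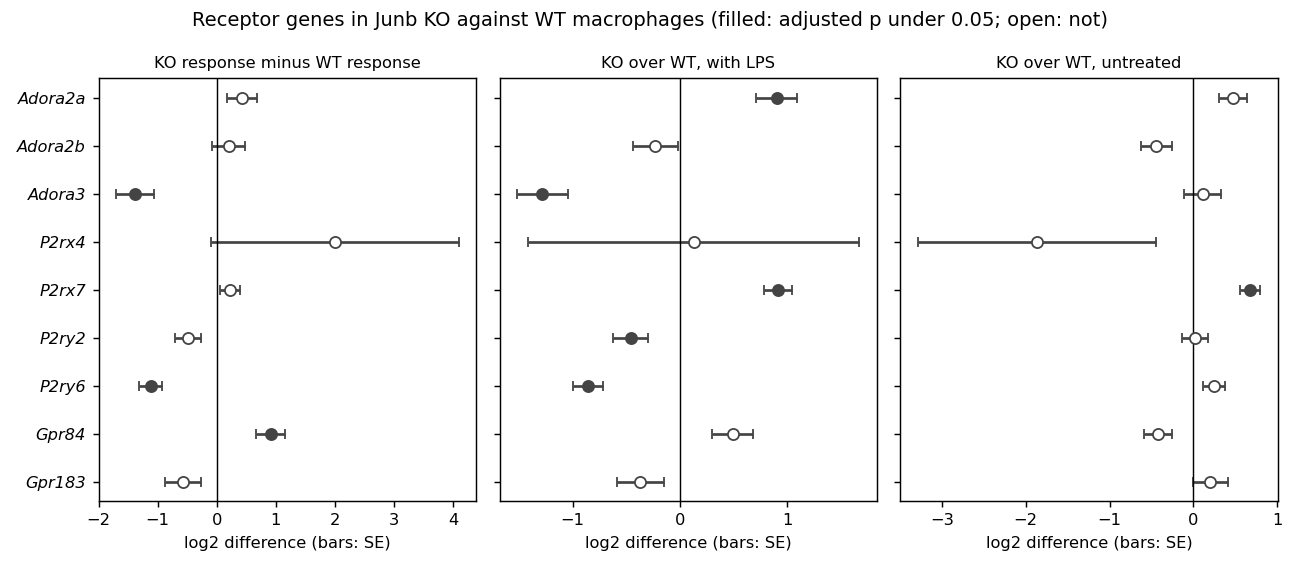
KO against WT cells for the 9 receptor genes (horizontal axes: log2 difference, with its own range in each panel; bars: SE; filled where the adjusted p was under 0.05), as the KO response minus the WT response, KO over WT with LPS and KO over WT untreated. Adora3 and P2ry6 lie left of 0 in the first 2 panels, and P2rx7 is the only filled point in the panel of untreated cells.

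Across the 15 arrays the levels of Adora2a, Adora2b, P2ry2 and Gpr84 went together, with Pearson correlations of 0.900 to 0.987, and each ran against Gpr183, with correlations of -0.984 to -0.916. Both reflect mainly the LPS and untreated groups that all arrays share, so they are a description of these arrays. P2ry6 had correlations of -0.265 to 0.533 with the other members, and P2rx4, with its single low array, of -0.269 to 0.219. The genes most like a member by the same measure were Exoc3l4 (0.998), Zfp800 (0.997) and Tes (0.995) for Adora2a, and Zfp975, Isg20 and Pnp2 (0.998 each) for Adora2b. Adora3 was nearest to Stk38l (0.970), 5430427O19Rik (0.969) and Arhgap6 (0.963). P2rx7 was nearest to Pram1 (0.997), Gtf2i (0.997) and the proton-sensing receptor gene Gpr65 (0.996), and P2ry2 to Prpf38a (0.997), Rab3ip (0.997) and Igf2bp2 (0.996). For P2ry6 the nearest gene was the prostaglandin E receptor gene Ptger2 (0.930), followed by Lmo2 (0.927) and Rab29 (0.925). Gpr84 was nearest to Ehd1 (0.992), Abracl (0.989) and Rtp4 (0.983), and Gpr183 to Frat1 (0.997), Tedc2 (0.996) and Mblac2 (0.996). The match of P2rx4 to Cenpb, Sharpin and Eya3 (0.996 each) rests on untreated KO replicate 3, where these genes stood at -2.91, -1.44 and -4.01 and at 3.27 or above on every other array, and without it the correlations were 0.677 to 0.753 over 14 arrays.

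Promoter windows of 300 bases were found for 7 of the 9 genes, 9 windows in all. The AP-1 motif TGANTCA, searched on both strands, was in 2 of the 9 windows, those of Adora3 and P2rx7 printed above, and in 7.81% of 32851 mouse promoters of the same length. The other motifs were in none of the 9 windows. These were the cyclic AMP response element TGACGTCA (1.79% of all promoters), the NF-kB consensus (8.46%), the interferon-stimulated response element (3.44%) and the STAT element TTCNNNGAA (8.3%). No overlap between motifs was counted apart.

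Of the other purinergic receptors, 7 of 12 could be tested, and 3 rose and 2 fell in each genotype. Beside this and the list counts below, LPS responses were called for 59.0% of all genes in KO cells and 60.0% in WT cells. P2ry13, a receptor for ADP, rose by 1.03 ± 0.16 in KO cells (adjusted p = 8.27e-05) and by 2.35 ± 0.15 in WT cells (adjusted p = 7.93e-09), and it was the gene of this list whose responses differed (-1.32 ± 0.22, adjusted p = 0.00194). At rest P2ry13 was 0.75 ± 0.15 higher in KO cells (adjusted p = 0.00335), and with LPS it was lower by 0.57 ± 0.16 (adjusted p = 0.017). The first was 0.57 in the value table (adjusted p = 0.083), and the second was -0.42 without LPS-treated KO replicate 3 (adjusted p = 0.102). P2ry14, the receptor for UDP-glucose, rose by 3.92 ± 0.75 in KO and 3.67 ± 0.69 in WT cells. P2ry1 fell by 1.34 ± 0.15 in KO cells and was well above background on 0 of 4 WT arrays with LPS. At rest P2ry1 and the platelet-type ADP receptor P2ry12 were higher in KO cells, by 0.69 ± 0.14 (adjusted p = 0.00403, and 0.0534 after quantile normalization) and 0.88 ± 0.20 (adjusted p = 0.00748).

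Of 22 genes for nucleotide release, breakdown and transport, 17 were tested, and 3 rose and 10 fell in KO cells while 3 rose and 8 fell in WT cells. Medians were -0.77 in KO and -0.44 in WT cells. Entpd1, the surface enzyme that degrades ATP and ADP, fell by 0.95 ± 0.20 in KO cells (adjusted p = 0.000828), with a WT value of -0.34 ± 0.18 (adjusted p = 0.128). Its responses were not shown to differ (-0.62, adjusted p = 0.169). At rest Entpd1 was 0.77 ± 0.18 higher in KO than in WT cells (adjusted p = 0.00939). With LPS that difference was 0.16 ± 0.20 (adjusted p = 0.601). Nt5e, which makes adenosine from AMP, was 1.63 ± 0.27 lower in untreated KO than in untreated WT cells (adjusted p = 0.000889) and was well above background on 0 of 3 KO arrays with LPS. Ada, which breaks adenosine down, was lower in KO cells too, by 0.79 ± 0.13 untreated (adjusted p = 0.000891) and by 1.24 ± 0.14 with LPS (adjusted p = 2.64e-05). The nucleoside transporter genes Slc28a2 and Slc29a3 were the 2 of 17 whose LPS responses differed, where 10.4% of all genes did. Slc28a2 rose by 2.43 ± 0.17 in KO cells and 4.45 ± 0.15 in WT cells (difference -2.02 ± 0.23, adjusted p = 7.64e-05), although its signal is uncertain because of a near-identical copy, Slc28a2b. Slc29a3 fell by 1.88 ± 0.17 in KO cells and fell by 0.44 ± 0.16 in WT cells (difference -1.44 ± 0.23, adjusted p = 0.00139).

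**Figure D4:**
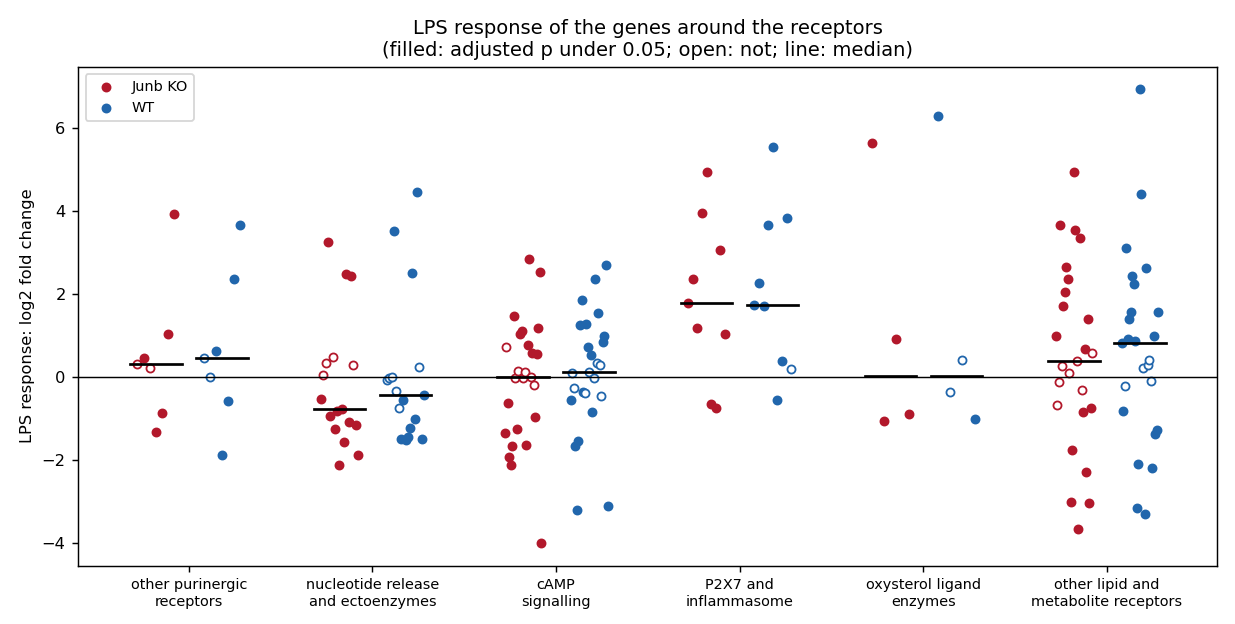
LPS response of the tested genes of 6 lists around the receptors (vertical axis: log2 fold change, LPS over untreated; points: genes, KO left of WT in each list; filled where the adjusted p was under 0.05; line: median). The P2X7 and inflammasome list lies mostly above 0 with medians of 1.78 in KO and 1.73 in WT cells, and the other lists spread to both sides.

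Downstream of the adenosine receptors, 25 of 26 genes of cyclic AMP signalling were tested. In KO cells 9 rose and 9 fell, and in WT cells 10 rose and 7 fell, with medians of 0 and 0.12. Pde4b, a phosphodiesterase that degrades cyclic AMP, rose by 2.83 ± 0.22 in KO and 2.36 ± 0.18 in WT cells. Responses differed for 5 of the 25 genes, where 10.4% of all genes did. The transcription factor gene Crem, which is itself induced by cyclic AMP, had a value of -0.03 in KO cells (adjusted p = 0.864) and rose by 1.84 in WT cells (adjusted p = 1.38e-08). That difference was -1.87 ± 0.17 (adjusted p = 2.94e-05) on the probe used and -1.96 on another, while the remaining probe gave -0.06 (adjusted p = 0.91), and the value table has -1.22 (adjusted p = 0.333). Arrb1, a β-arrestin gene, fell by 2.14 ± 0.16 in KO cells and fell by 3.22 ± 0.15 in WT cells (difference 1.08 ± 0.22, adjusted p = 0.00687). That call was lost with normexp (0.66, adjusted p = 0.128), in the value table (0.61, adjusted p = 0.18) and with the replicate block (1.08, adjusted p = 0.12).

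Downstream of P2rx7, all 9 genes listed for the inflammasome were tested. In each genotype 7 rose, while 2 fell in KO cells and 1 fell in WT cells. Of all genes tested, 31.1% rose in KO cells and 34.8% in WT cells. Nlrp3, the sensor, rose by 3.05 ± 0.19 in KO and 3.82 ± 0.18 in WT cells, and its level with LPS was 0.84 ± 0.19 lower in KO cells (adjusted p = 0.00465). Il1b rose by 4.93 ± 0.23 in KO and 5.55 ± 0.22 in WT cells. Nek7, a kinase that binds NLRP3, fell by 0.75 in KO cells (adjusted p = 0.000806) and rose by 0.38 in WT cells (adjusted p = 0.0327), and these responses differed (-1.13 ± 0.21, adjusted p = 0.00389). With the replicate block that call was lost (-1.10, adjusted p = 0.0961). Pycard, the inflammasome adaptor, rose by 1.04 in KO cells (adjusted p = 9.75e-05) and had a WT value of 0.18 (adjusted p = 0.335).

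Of 5 enzymes that make or degrade the ligands of Gpr183, 4 were tested. Ch25h, which starts their synthesis, rose by 5.63 ± 0.24 in KO cells (adjusted p = 1.31e-10) and by 6.29 ± 0.22 in WT cells (adjusted p = 1.37e-11). With LPS it was 0.97 ± 0.24 lower in KO than in WT cells (adjusted p = 0.00696), but the deposited value table has 1.01 (adjusted p = 0.657). Hsd3b7, which inactivates these oxysterols, fell by 0.89 ± 0.19 in KO cells (adjusted p = 0.00134) and fell by 1.01 ± 0.18 in WT cells (adjusted p = 0.000227). Cyp27a1, another oxysterol-forming enzyme, fell by 1.06 ± 0.18 in KO cells (adjusted p = 0.000176) and had a WT value of -0.36 ± 0.17 (adjusted p = 0.084).

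Of 35 other receptors for lipids and metabolites, 25 were tested. In KO cells 11 rose and 7 fell, and in WT cells 13 rose and 7 fell, with medians of 0.37 and 0.82. Hcar2, the receptor for niacin and ketone bodies, rose most in both genotypes, by 4.93 ± 0.18 in KO and 6.93 ± 0.17 in WT cells (difference -1.99 ± 0.25, adjusted p = 0.000203), and a second probe gave a difference of -2.54. Lpar6, a lysophosphatidic acid receptor gene, fell by 3.66 ± 0.19 in KO cells and fell by 3.31 ± 0.16 in WT cells, and the KO value was -2.02 (adjusted p = 0.289) in the value table. Ptger2 had a pattern close to that of P2ry6: it fell by 0.84 ± 0.18 in KO cells (adjusted p = 0.0013), had a WT value of 0.40 ± 0.17 (adjusted p = 0.0591), and its responses differed (-1.24 ± 0.25, adjusted p = 0.00669). The Ptger2 difference missed the threshold with the replicate block (-1.21, adjusted p = 0.079). S1pr1, the sphingosine 1-phosphate receptor gene, was 1.48 ± 0.23 higher in untreated KO cells (adjusted p = 0.000452). It fell by 3.04 ± 0.24 with LPS in KO cells and fell by 1.37 ± 0.23 in WT cells (difference -1.67 ± 0.33, adjusted p = 0.00615). The S1pr1 difference also missed the threshold with the replicate block (-1.77, adjusted p = 0.058).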

How the data were processed

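RNA from 15 wells of bone marrow-derived macrophages was amplified, labelled with Cy3 and hybridised to 1-colour Agilent arrays. The deposited scanner files hold intensity values made with Agilent Feature Extraction 10.7.3.1, per the file headers, and the processed signal used here is background-corrected. A deposited value table holds the authors' processed log2 values of the same arrays, with column medians near 6.25. Its normalization and centring are not given in the sources used here, and it served as an alternative.

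Control spots were left out, 4827 outlier spots were set missing, and spots of a probe were averaged. Signals were divided by the array's 75th percentile, floored at 0.0442 of it (-4.50 on the log2 scale) and taken to log2. Probes had to exceed background, by the scanner software's own call, on 3 or more arrays of any group. Probes were named by matching their accession to RefSeq (26582 of 55681 probes matched), and a gene was read from its kept probe with the highest mean, which matters for the 3485 genes with more than 1 kept probe. Means of the 4 groups were fitted to 14198 genes with limma 3.58.1 in R 4.3.3, and p-values were adjusted over all genes by the Benjamini-Hochberg method at 0.05. For values of single probes the adjustment was over all probes kept. Intervals are at 95%. Exact permutation tests were two-sided, with 0.0286 the smallest p for 4 against 4 or 4 against 3 arrays. The number of arrays limits the precision. The fit was tested on simulated data.

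The named genes are the 9 receptors, the 3 genes most correlated with each, cell type markers and genes that check the labels. From every other list, up to 4 called genes with the largest change were selected in each comparison. Not all of these are named, and Entpd1 was named outside this rule. The members and the lists were chosen with earlier results of these data known. The same replicate number marks the same column of the slide. The deviations of same-numbered KO and WT arrays with LPS correlated at 0.446, 0.241 and 0.137, so that comparison was also fitted with the replicate number as a block. In the other comparisons at least 1 pair correlated below 0.1. Alternatives were normexp background correction (on the median spot signal), quantile normalization, another percentile, the value table, other probe filters, the mean over probes, the replicate block, fits on the compared groups alone, and leaving out each array. Leaving out the 3 arrays that deviated most, and refitting single probes without untreated KO replicate 3, were added after seeing the data. Promoters are from RefSeq, GRCm38.p6.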

Additional observations from a re-analysis of the deposited data

Results flagged for a closer look

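Of 27 sets of 4 arrays (9 genes in the 3 groups of that size), 6 held an array far from the others. For independent sets chance gives about 1 in 20. These sets share arrays and are not independent, so the count is no test against that rate. On untreated WT replicate 1 this was so for 4 genes: Adora3 stood at -1.63 (others -0.82 to -0.74), P2rx4 at 6.27 (others 6.74 to 6.76), P2ry2 at 2.55 (others 3.02 to 3.11) and P2ry6 at 5.21 (others 5.66 to 5.71). On untreated KO replicate 3 it was so for P2rx4, at -1.60 (others 6.52 to 7.11), and for Adora2a, at 0.59 (others 0.37 to 0.39). The LPS response differed between the genotypes, KO minus WT, for Adora3 by -1.39, for P2ry6 by -1.12 and for Gpr84 by 0.91.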

How the results depend on the processing

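Of 3474 values for single genes under an alternative, 3323 kept their direction and their side of the threshold, 124 lost the call, 22 gained one and 5 reversed. The reversed values were the P2ry6 response in WT cells (-0.29 after quantile normalization, -0.02 with the percentile over probes above background on all arrays, -0.29 in the value table) and, in the value table, P2rx7 in untreated KO against WT cells (-1.35) and Ch25h in KO against WT cells with LPS (1.01); the cause was not tested. Normexp gave 793 genes for the difference of responses (1472 in the main setting) and 1702 for KO against WT untreated (2608). Receptors called in KO against WT untreated numbered 3 after quantile normalization, 4 with the other percentile, 3 without the 3 arrays that deviated most, and 1 to 3 with single arrays left out (1 in the main setting). The value table gave 5 receptors for the WT response (8), 0 for the difference (3) with 527 genes, 0 for KO against WT untreated with 1166 genes, and 2588 genes for KO against WT with LPS (4236). It lacks the Adora2b probe used. Leaving out single arrays gave 909 to 1963 genes for the difference and 2765 to 4755 for KO against WT with LPS, both lowest without LPS-treated KO replicate 3. Scaling moved the share of rises among all called genes to 37.8% in KO and 43.5% in WT cells after quantile normalization, and to 36.6% and 37.1% with the other percentile, against 52.6% and 58.0%. In KO against WT cells with LPS the replicate block changed no receptor call but that of P2ry2. For the difference of responses, where the numbers are not shown to pair the samples, the replicate block left 0 receptors and 309 genes. Requiring a probe above background on all arrays leaves out Gpr183. Levels near background limit Gpr183 with LPS.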
